A study of Mus musculus with 24 samples.

Results

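The liver takes up fatty acids from blood and chylomicron remnants, and 9 genes that carry out the entry and the intracellular binding of these lipids were followed here in fed and fasted mice with or without hepatocyte p110α. They are Cd36, 4 genes of the Slc27a family (Slc27a1, Slc27a2, Slc27a4 and Slc27a5) and 4 genes of the fatty acid binding protein family (Fabp1, Fabp2, Fabp4 and Fabp5). They were chosen by name for their role, with earlier results of these data known. All 9 were on the array, on 11 probes, and all passed the filter on dim probes, among 21495 genes tested in all. LWT names albumin-Cre-/- floxed p110α littermates (p110αhep+/+), and LKO names p110α flox/flox mice with 1 albumin-Cre allele (p110αhep-/-), whose Cre, under control of the albumin promoter, deletes in hepatocytes and spares the gene in other cells of the liver. All were male mice of 12 weeks that carried the floxed allele on a C57Bl/6J background, fed ad libitum (LWT_Fed, LKO_Fed) or deprived of food for 24 h from ZT16 (LWT_Fasted, LKO_Fasted), and all were killed at ZT16. Each of the 4 groups held 6 mice with 1 array per mouse. Each of 3 slides carried 2 arrays of every group. The comparisons ask how these genes respond to fasting, and whether that response depends on hepatocyte p110α, a catalytic subunit of the phosphoinositide 3-kinase that relays the insulin signal.

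Long-chain fatty acids reach hepatocytes bound to albumin, or are freed from triglyceride by lipases, and cross the plasma membrane in part with the help of CD36, a scavenger receptor. The fatty acid transport proteins encoded by Slc27a genes couple entry to the formation of acyl-CoA, which traps the lipid in the cell. Inside the cell, small fatty acid binding proteins keep the lipids soluble and carry them to mitochondria, to the endoplasmic reticulum and to nuclear receptors. In fasting, lipolysis in adipose tissue raises the supply of fatty acids to the liver, and PPARα, a nuclear receptor activated by fatty acids, turns on many genes of their use.

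Between 54.7% and 63.0% of the spots of an array were well above background, and no spot was saturated. The probe for Pik3ca, which encodes p110α, did not read lower on arrays labelled LKO: it was 0.58 higher (log2, SE 0.11, adjusted p = 0.00147, limma) in the fed state and differed by -0.021 (SE 0.12, adjusted p = 0.93) in the fasted state. Whether this probe lies in the deleted part of the gene was not checked here, so the genotype of an array is taken from its label throughout. All 9 hepatocyte markers tested, among them Alb, were present, with a summed signal of 1932370 to 2121230 on the 24 arrays. The brightest markers, such as Alb, make up most of this sum. Quantile normalization fixes the level of each rank, so an even sum does not measure hepatocyte content. Its median was 2060710 in LWT_Fed, 2043740 in LWT_Fasted, 2059770 in LKO_Fed and 1937660 in LKO_Fasted. Apoa1 was higher and Ttr lower in fed LKO than in fed LWT, and Ttr was lower in fasted LKO (limma, adjusted p at most 0.05). In RNA of whole liver, fewer cells of a type and less RNA per cell cannot be told apart.

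The start regions of the genes are shown first, since PPARα and its partner RXR bind direct repeats of the hexamer AGGTCA spaced by 1 base. RefSeq windows of 300 bases (250 before and 50 after the annotated start; assembly GRCm38.p6) were found for 6 of the 9 genes, and Fabp4, Fabp5 and Slc27a5 had no entry in the table used. The windows of Fabp1 and Fabp2, both cytosolic binding proteins whose signals behaved differently, of Cd36, which differed between genotypes, and of Slc27a2, which rose with fasting, are given 5′ to 3′ on the strand of the gene. Capitals mark AGGTCA, its direct repeat spaced by 1 base with up to 2 mismatches, or TATAAA, on either strand, and the repeat can contain AGGTCA itself. The Cd36 window is chr5:17835847-17836146 on the minus strand, that of Fabp1 is chr6:71199629-71199928, that of Fabp2 is chr3:122894822-122895121 and that of Slc27a2 is chr2:126552774-126553073, all 3 on the plus strand.
Cd36: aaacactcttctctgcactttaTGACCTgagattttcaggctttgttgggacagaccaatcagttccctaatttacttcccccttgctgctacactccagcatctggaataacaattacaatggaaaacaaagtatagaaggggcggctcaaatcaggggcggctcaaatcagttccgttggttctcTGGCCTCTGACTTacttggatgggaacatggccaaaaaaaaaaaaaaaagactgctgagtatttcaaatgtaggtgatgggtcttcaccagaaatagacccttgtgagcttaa
Fabp1: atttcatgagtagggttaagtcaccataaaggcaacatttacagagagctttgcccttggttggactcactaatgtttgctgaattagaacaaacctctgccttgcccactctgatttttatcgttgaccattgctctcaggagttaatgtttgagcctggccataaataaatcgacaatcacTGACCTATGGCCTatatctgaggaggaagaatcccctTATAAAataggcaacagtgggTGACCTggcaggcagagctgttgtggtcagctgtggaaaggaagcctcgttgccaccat
Fabp2: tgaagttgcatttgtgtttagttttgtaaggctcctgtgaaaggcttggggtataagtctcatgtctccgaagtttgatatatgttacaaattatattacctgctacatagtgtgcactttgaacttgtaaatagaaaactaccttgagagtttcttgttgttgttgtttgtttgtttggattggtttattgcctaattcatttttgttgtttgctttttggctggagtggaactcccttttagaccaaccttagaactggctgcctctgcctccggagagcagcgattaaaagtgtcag
Slc27a2: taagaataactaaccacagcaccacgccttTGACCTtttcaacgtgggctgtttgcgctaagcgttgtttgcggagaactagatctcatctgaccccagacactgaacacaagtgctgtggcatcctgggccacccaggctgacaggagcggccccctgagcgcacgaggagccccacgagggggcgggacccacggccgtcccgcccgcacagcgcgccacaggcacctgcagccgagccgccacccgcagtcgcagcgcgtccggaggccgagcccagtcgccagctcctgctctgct

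In the Fabp1 window, a repeat with up to 2 mismatches begins at -67 from the start and contains AGGTCA read on the other strand, a second AGGTCA on the other strand begins at -9 and TATAAA begins at -30. The Cd36 window holds such a repeat at -63 and AGGTCA at -228, and the Slc27a2 window holds AGGTCA at -220, all read on the other strand. Of 32817 mouse windows of the same length, 16.3% hold AGGTCA, 3.86% the repeat with up to 2 mismatches, 0.0396% the exact repeat and 13.6% TATAAA. None of these was found in the windows of Fabp2, Slc27a4 or the 3 windows of Slc27a1. CACGTG, present in 7.15% of windows, was found in 1 window of Slc27a1 and in no other. These matches describe the letters only.

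Values are normalized log2 signals, on which a difference of 1 is a doubling, and signals of different probes cannot be ranked against each other. In LWT mice, fasting raised Slc27a1 and Slc27a2 and lowered Fabp5, so 3 of the 9 genes changed (limma, adjusted p at most 0.05), where 41.5% of all genes tested did. In mice labelled LKO, fasting raised Slc27a1, Slc27a2, Fabp2 and Fabp4 and lowered Slc27a5, so 5 of the 9 changed, where 41.5% of all genes did. All of these but Slc27a5 also passed a fold of 1.5. In the fed state, Cd36 and Fabp2 were lower in LKO than in LWT, both past 1.5-fold, so 2 of 9 differed, where 16.4% of all genes did and 7.60% were lower. In the fasted state, Fabp4 and Fabp5 were higher and Cd36 lower in LKO, so 3 of 9 differed, where 20.6% of all genes did, and for none of the 9 were the fasted groups free of overlap, where 8.67% of all genes were. The change with fasting itself differed between the genotypes for Fabp2, Fabp4 and Fabp5, 3 of 9, all more positive in LKO, where 7.97% of all genes differed and 4.11% were more positive. With 9 genes, the counts for fasting and for genotype lay near the shares of all genes, and that for the difference of the fasting changes lay above its share, which was not tested. Since the 9 genes were chosen with earlier results of these data known, this position above the share is a description only. The median log2 fold change of the 9 genes was -0.070 with fasting in LWT, 0.084 with fasting in LKO, -0.22 for genotype in the fed state, 0.12 for genotype in the fasted state and 0.26 for the difference of the fasting changes, and the medians over all genes were -0.0075, -0.021, -0.014, -0.0039 and -0.0013. The comparisons share groups with each other, since LWT_Fed and LKO_Fasted, for example, each enter more than 1 of them, so their values are set side by side and not treated as independent.

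**Figure D1:**
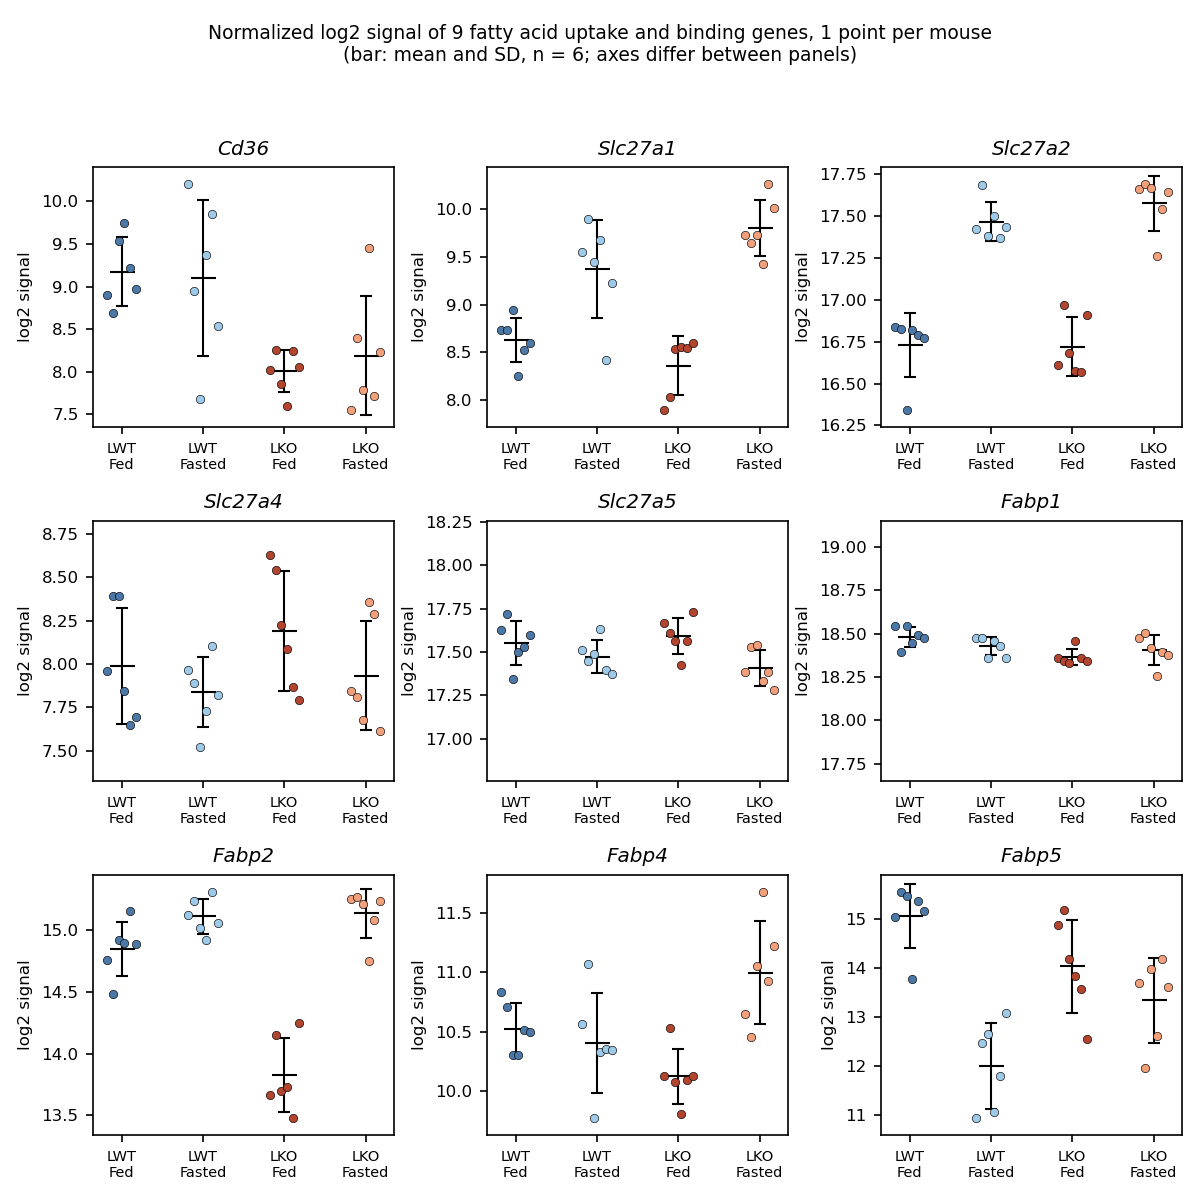
Normalized log2 signal (vertical axis, ranges differ between panels) of the 9 genes in the 4 groups, with 1 point per mouse and a bar for the mean and SD (n = 6). Fabp2 is low in the 6 LKO_Fed mice, Fabp5 is low in the 6 LWT_Fasted mice, and Slc27a2 is high in both fasted groups.

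Cd36, the scavenger receptor that binds long-chain fatty acids at the cell surface, was lower in LKO than in LWT, and its fasting values passed the test in neither genotype. Its probe lies at chr5:17288600-17288659 (mm9, the build of the files). Signal ranged from 8.69 to 9.75 in LWT_Fed with a median of 9.10, and from 7.60 to 8.25 in LKO_Fed with a median of 8.04. Every LKO_Fed array lay below every LWT_Fed array, one of 2 members whose fed groups did not overlap, as was the case for 8.63% of all genes. The fed difference was -1.19 (SE 0.32, adjusted p = 0.0142), or 2.28-fold, and within the 3 slides it was -1.22, -0.66 and -1.63. Leaving out any 1 of the 24 arrays kept it past the threshold, with values from -1.27 to -1.04.

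In the fasted groups, Cd36 was spread far more widely. It ran from 7.68 to 10.21 in LWT_Fasted with a median of 9.16 and from 7.55 to 9.45 in LKO_Fasted with a median of 8.01. The groups overlapped, since 1 LWT_Fasted array was nearly as low as the lowest of LKO_Fasted and 1 LKO_Fasted array stood at 9.45. The difference was -1.002 (SE 0.34, adjusted p = 0.0407), and it was not of 1 sign within slides, at 0.18, -1.19 and -1.72. This call was lost on leaving out any of 9 arrays, with adjusted p of 0.0605 without LWT_Fed replicate 5, 0.141, 0.112 and 0.132 without LWT_Fasted replicates 1, 4 and 5, and 0.109, 0.0534, 0.0705, 0.0656 and 0.0611 without LKO_Fasted replicates 1, 2, 3, 5 and 6. The value ran from -1.40, without LWT_Fasted replicate 3, to -0.65, without LWT_Fasted replicate 1. It passed in 9 of 13 alternative settings, with adjusted p from 0.0172 to 0.152. With fasting, Cd36 moved by -0.10 (95% interval -0.75 to 0.55) in LWT and by 0.084 (-0.63 to 0.80) in LKO, and neither passed the test. The fasting value reversed sign without LWT_Fed replicate 4 (0.051) or LWT_Fasted replicates 3 (0.28) or 6 (0.25) in LWT, and without LKO_Fed replicate 4 (-0.020) or LKO_Fasted replicate 4 (-0.028) in LKO. The difference between the fasting changes, 0.18 (adjusted p = 0.858), turned to -0.23 without LWT_Fasted replicate 3 and to -0.15 without replicate 6.

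Over the 24 arrays, the genes whose signal was most like that of Cd36 were Upp1, a uridine phosphorylase, Cfd, which encodes complement factor D (adipsin), and Osbpl5, each with Pearson r = 0.80. After group means were removed these were 0.66, 0.62 and 0.70, and r carries array-wide differences too, so they are given as a description. Cfd, also on the list of adipocyte markers, was lower in LKO, by a fitted -2.76 (log2, SE 0.73, adjusted p = 0.0123) in the fed state and -3.001 (SE 0.77, adjusted p = 0.00800) in the fasted state. Its range was 6.71 to 9.79 in LWT_Fed, 6.19 to 12.35 in LWT_Fasted, 5.54 to 6.14 in LKO_Fed and 5.69 to 7.41 in LKO_Fasted. The probe was well above background on all 6 arrays of each LWT group but on 3 of 6 in LKO_Fed and 5 of 6 in LKO_Fasted, so the size of these differences is limited by the background. Both arrays with the highest Cd36, from LWT_Fasted, were also highest for Cfd, whereas the LKO_Fasted array with Cd36 at 9.45 had Cfd at 5.69. Of 7 adipocyte markers 5 could be tested, and 2 differed between genotypes in each feeding state (Cfd lower, Adrb3 higher). The summed signal of the 5 was 1200.49 to 1882.09 in LWT_Fed, 1085.08 to 6121.68 in LWT_Fasted, 1295.92 to 1854.18 in LKO_Fed and 1373.01 to 1846.40 in LKO_Fasted. Cfd and Adrb3 moved in opposite directions and can cancel in this sum, so similar fed ranges do not show equal adipocyte signal. Plin1 and Retn were dim, well above background on 20 and 15 of 24 arrays. Adipoq, the adipocyte hormone adiponectin, was well above background on 11 of 24 arrays and did not pass the filter. Of 10 endothelial markers, 2 were lower in fed LKO (Lyve1 at -0.88 and Tek at -0.51) and none differed in the fasted state (limma, 1 at an unadjusted p under 0.05). Beside these marker counts, 16.4% of all genes differed between genotypes when fed (7.60% lower) and 20.6% when fasted. In fed LKO against fed LWT, 9 of 10 endothelial markers were negative (median -0.18), as were 9 of 10 macrophage markers (median -0.37), of which none passed. In the fasted state 6 of 10 and 4 of 10 were negative (medians -0.048 and 0.0093). The part of adipocytes, endothelium and macrophages in the Cd36 differences was not tested.

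Pparg, a nuclear receptor known to act on Cd36 in liver and adipose tissue, was lower in LKO in the fed state. The difference was -1.02 (SE 0.26, adjusted p = 0.0107, limma) when fed and -0.66 (adjusted p = 0.102) when fasted. It ranged from 9.82 to 11.45 in LWT_Fed and from 9.13 to 10.20 in LKO_Fed, and the groups overlapped. Of the 12 regulators on the list below, the other 11 did not pass the test when fed. Whether Pparg has a part in the Cd36 values was not tested.

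**Figure D2:**
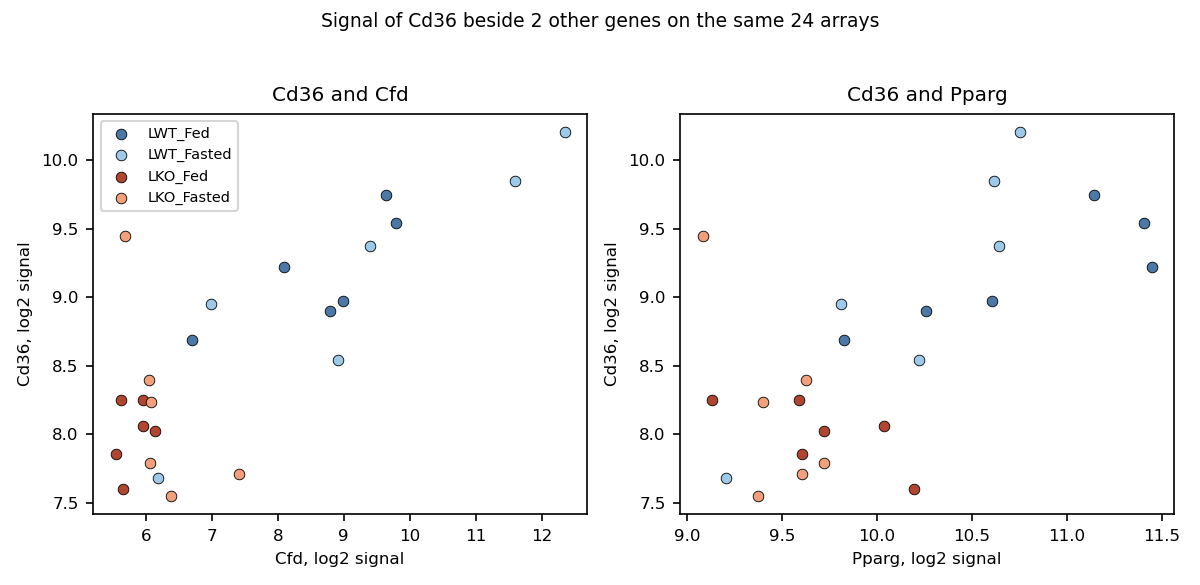
Normalized log2 signal of Cd36 (vertical axes) against that of Cfd and of Pparg (horizontal axes), with 1 point per array and colour for the group. The LKO arrays gather at low Cd36 and low Cfd except 1 LKO_Fasted array with Cd36 at 9.45, and Cd36 and Cfd are both widely spread among LWT_Fasted arrays.

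Among the transport proteins, Slc27a2 and Slc27a1 rose with fasting in both genotypes, Slc27a5 fell slightly in LKO, and Slc27a4 passed no test. Slc27a2 encodes FATP2, an acyl-CoA synthetase of very-long-chain fatty acids in peroxisomes and endoplasmic reticulum that also takes part in uptake (probe chr2:126413890-126413949, mm9). Signal was 16.34 to 16.84 in LWT_Fed with a median of 16.80, and 17.37 to 17.68 in LWT_Fasted with a median of 17.43. In mice labelled LKO it was 16.57 to 16.97 (median 16.65) when fed and 17.26 to 17.69 (median 17.65) when fasted. No fasted array fell within the range of the fed arrays of its genotype. The increase was 0.65 (SE 0.073, adjusted p = 3.68e-07) or 1.57-fold in LWT and 0.91 (SE 0.081, adjusted p = 9e-09) or 1.88-fold in LKO, and both held whichever array was left out. The gap between the 2 increases, 0.26 (SE 0.11, adjusted p = 0.152), did not pass, and it was -0.46 within slide 1 and 0.44 and 0.38 within slides 2 and 3. Without the 2 arrays of lowest weight in the model, LWT_Fed replicate 3 and LKO_Fasted replicate 4, both on slide 1, it was 0.32 with adjusted p = 0.0245, and LKO against LWT when fasted, 0.18 with all arrays (adjusted p = 0.129), was 0.21 (0.0211). Those arrays were also the lowest of their groups for Slc27a2, at 16.34 and 17.26, and this setting was chosen after the data were seen.

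Slc27a1 encodes FATP1, the insulin-responsive transporter best known from muscle and adipose tissue (probe chr8:74110256-74110315). It ranged from 8.26 to 8.94 in LWT_Fed (median 8.67), 8.42 to 9.89 in LWT_Fasted (median 9.50), 7.90 to 8.60 in LKO_Fed (median 8.54) and 9.42 to 10.26 in LKO_Fasted (median 9.73). The fed and fasted LKO arrays did not overlap, whereas 1 LWT_Fasted array at 8.42 lay within the fed range. Fasting raised it by 0.72 (SE 0.19, adjusted p = 0.00473) or 1.64-fold in LWT and by 1.49 (SE 0.21, adjusted p = 6.89e-06) or 2.82-fold in LKO. The difference of the increases was 0.78 (95% interval 0.18 to 1.37), with adjusted p = 0.102, and was positive within each slide, at 0.39, 1.01 and 0.71. In the fasted state, LKO exceeded LWT by 0.56 (adjusted p = 0.0659), which passed without LWT_Fasted replicate 2 (0.0454) or replicate 4 (0.0270), and also without the slide term (0.0413) or with slide as a random block (0.0412). Within the slides it was -0.026, 0.50 and 0.82.

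Slc27a5 encodes FATP5, which forms bile acid-CoA and takes up fatty acids in hepatocytes (probe chr7:13573701-13573760). Its 24 values lay between 17.28 and 17.73, and group means were 17.41 to 17.59. The 6 LKO_Fasted arrays averaged 17.41 ± 0.10 (SD, n = 6) and the LKO_Fed arrays 17.59 ± 0.11, with overlap, which the model put at -0.18 (log2, SE 0.068, adjusted p = 0.0404), or 1.13-fold. This small call was lost without LWT_Fed replicate 5 (adjusted p = 0.0575), LKO_Fed replicates 1, 2, 3 and 6 (0.0718, 0.0560, 0.0700 and 0.0763) and LKO_Fasted replicates 4, 5 and 6 (0.0535, 0.115 and 0.115). It passed in 6 of 13 alternative settings, with adjusted p from 0.00564 to 0.0709, and did not reach 1.5-fold. In LWT the value was -0.10 (adjusted p = 0.204), which passed at -0.16 without LWT_Fasted replicate 4 (0.0281). The genotype differences, 0.014 when fed and -0.064 when fasted, had 95% intervals of -0.12 to 0.14 and -0.20 to 0.075. The fasted value passed in 2 of 13 alternative settings, at -0.17 with the processed signal (adjusted p = 0.0366) and with median centring (0.0492).

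Slc27a4, encoding FATP4, ranged from 7.52 to 8.63 over the 24 arrays and passed no comparison (probe chr2:29672983-29673042). Its values were -0.070 with fasting in LWT, -0.35 with fasting in LKO (adjusted p = 0.111; 0.0495 and 0.0496 without LKO_Fed replicates 5 and 6), 0.32 for LKO against LWT when fed and 0.036 when fasted. A dimmer second probe for the gene gave opposite signs in the 5 comparisons, between -0.12 and 0.14, so no direction is given for it. The value of -0.070 turned positive without LWT_Fed replicate 2 (0.0074) or LWT_Fasted replicate 3 (0.026), and that of 0.036 turned negative without LWT_Fasted replicate 3 (-0.069) or LKO_Fasted replicates 4 (-0.0074) or 5 (-0.042).

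**Figure D3:**
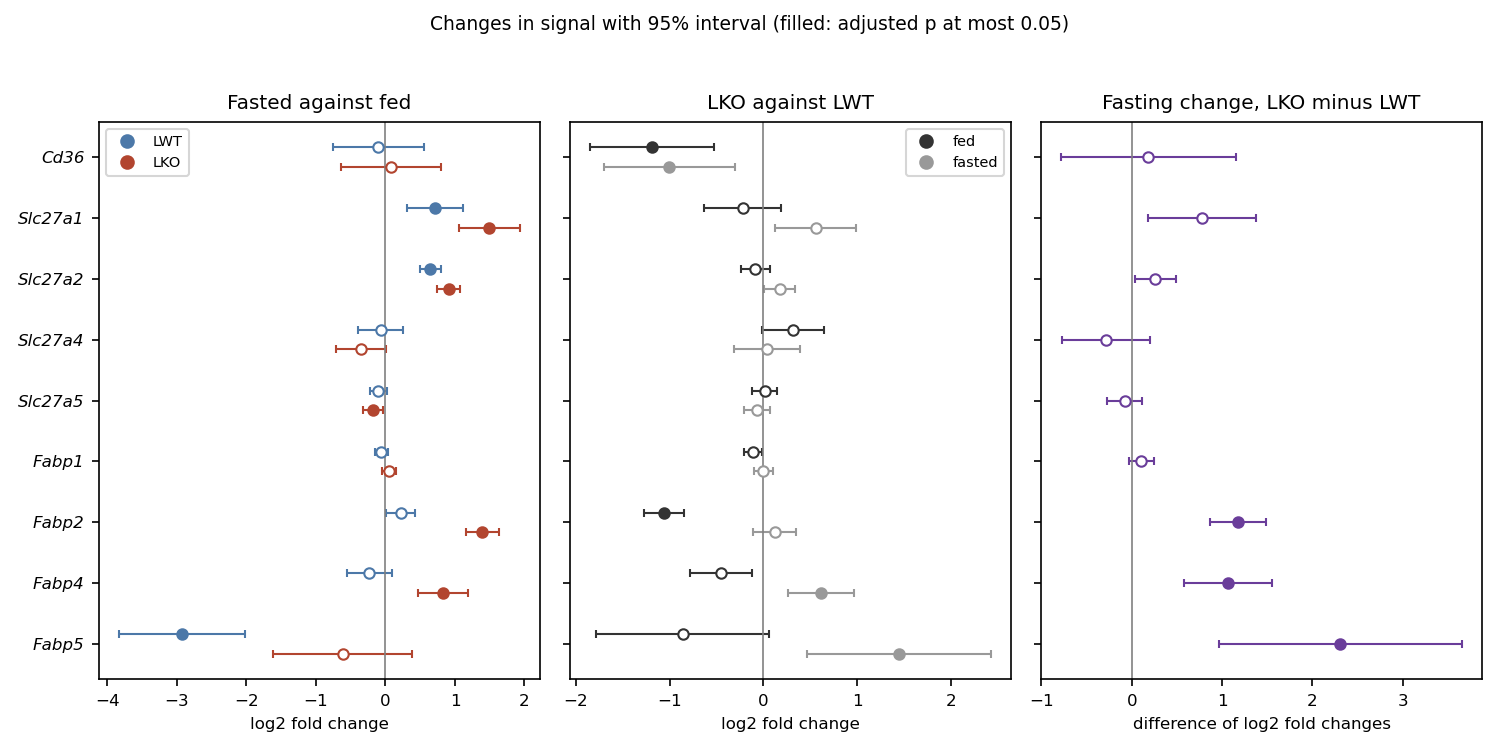
Log2 fold changes from limma with 95% intervals (horizontal axes) for the 9 genes, for fasting in LWT and LKO, for LKO against LWT when fed and fasted, and for the difference of the fasting changes (LKO minus LWT), with filled points for adjusted p at most 0.05. Slc27a1 and Slc27a2 lie right of 0 in both genotypes in the first panel, and Fabp2, Fabp4 and Fabp5 are the filled points in the last.

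Among the binding proteins, Fabp2 was lower in fed LKO than in fed LWT mice and rose with fasting in LKO mice. Fabp2 encodes the intestinal-type protein, which binds long-chain fatty acids in enterocytes and is also expressed in mouse liver (probe chr3:122602276-122602335). Its signal was 14.49 to 15.16 in LWT_Fed (median 14.89) and 13.48 to 14.24 in LKO_Fed (median 13.71), with no overlap. In the fasted groups it was 14.93 to 15.31 (median 15.09) for LWT and 14.75 to 15.27 (median 15.23) for LKO, and these ranges overlapped nearly whole. Fed LKO mice thus lay apart from the other 3 groups. The fed difference was -1.06 (SE 0.10, adjusted p = 1.58e-06) or 2.08-fold, and the fasted difference was 0.12 (95% interval -0.11 to 0.35, adjusted p = 0.492). Fasting raised Fabp2 by 1.40 (SE 0.11, adjusted p = 1.68e-09) or 2.63-fold in LKO, and in LWT the value was 0.22 (SE 0.10, adjusted p = 0.0867; 0.0474 without LWT_Fasted replicate 6). The changes differed by 1.18 (SE 0.15, adjusted p = 9.79e-05), with 0.71, 1.13 and 1.31 within the slides and 1.11 to 1.23 on leaving out 1 array at a time. None of 7 intestinal epithelium markers passed the filter: Cdx2, Lct and Cdh17 were well above background on 0 of 24 arrays, Sis and Alpi on 1, Cdx1 on 2 and Vil1 on 4.

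Among the genes most like Fabp2 were Sar1b (r = 0.91), a GTPase of lipoprotein export, and Serinc2 (r = 0.90). Within groups these r were 0.42 and 0.49. For Slc27a2 they included Creb3l3 (0.97), a fasting-activated transcription factor, and Mlycd (0.97), which degrades malonyl-CoA, with 0.83 and 0.71 within groups. For Slc27a1 they were Slc52a2 (0.92), a riboflavin transporter, Ehhadh (0.92), of peroxisomal β-oxidation, and Pank1 (0.92), of coenzyme A synthesis, with 0.69, 0.72 and 0.67 within groups. Among the members themselves, Slc27a1 with Slc27a2 had the highest r, 0.81, which was 0.090 within groups.

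Fabp5, the epidermal-type binding protein, fell steeply with fasting in LWT (probe chr3:10016185-10016244). Signal ran from 13.79 to 15.55 in LWT_Fed with a median of 15.27 and from 10.95 to 13.08 in LWT_Fasted with a median of 12.14, with no overlap. It ran from 12.55 to 15.19 in LKO_Fed (median 14.02) and from 11.96 to 14.19 in LKO_Fasted (median 13.66), where most of either range was shared. With Slc27a2 it was one of 2 members whose LWT groups did not overlap, where 21.6% of all genes were so, and 3 members did not overlap in LKO (Slc27a1, Slc27a2 and Fabp2), where 22.1% of all genes were so. The decrease in LWT was -2.93 (SE 0.44, adjusted p = 1.28e-05), 7.60-fold, and held whichever array was left out. In LKO the value was -0.62 (95% interval -1.61 to 0.38, adjusted p = 0.326), and it ran from -0.92 without LKO_Fed replicate 6 to -0.29 without LKO_Fasted replicate 2, with no call. The difference of 2.31 (SE 0.65, adjusted p = 0.0330) was positive within each slide, at 1.06, 3.36 and 2.68. Its call was lost without LWT_Fed replicates 2, 5 and 6 (adjusted p = 0.0525, 0.0886 and 0.0533), LWT_Fasted replicates 1, 4 and 5 (0.0567, 0.0584 and 0.0525), LKO_Fed replicate 5 (0.0636) and LKO_Fasted replicates 3, 5 and 6 (0.0544, 0.0723 and 0.0752), while the value stayed between 1.96 and 2.75. It passed in 10 of 12 alternative settings (adjusted p 0.0129 to 0.0667).

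Fasted LKO mice had more Fabp5 signal than fasted LWT mice, by 1.45 (SE 0.47, adjusted p = 0.0339) or 2.73-fold, with overlapping groups. The value was -0.49 within slide 1 and 2.29 and 2.22 within slides 2 and 3. This call was lost without LWT_Fasted replicates 1, 4 and 5 (adjusted p = 0.0985, 0.0942 and 0.0617) and LKO_Fasted replicates 1, 3, 5 and 6 (0.0564, 0.0689, 0.0922 and 0.0909), and it passed in 9 of 13 alternative settings (adjusted p 0.0149 to 0.0747). In the fed state LKO stood at -0.86 against LWT (95% interval -1.79 to 0.062, adjusted p = 0.204), and at -0.53 without LKO_Fed replicate 6. Its SDs within groups were 0.65 to 0.95. The genes most like it were Apex1 (r = 0.88), a DNA repair nuclease, Sqle (0.86), an enzyme of cholesterol synthesis, and Nme1 (0.85), a nucleoside diphosphate kinase, with 0.57, 0.69 and 0.57 within groups.

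Fabp4, the binding protein of adipocytes, macrophages and capillary endothelium, rose with fasting in LKO (probe chr3:10204452-10204511). It ranged from 10.30 to 10.84 in LWT_Fed (median 10.50), 9.77 to 11.07 in LWT_Fasted (median 10.35), 9.81 to 10.53 in LKO_Fed (median 10.11) and 10.45 to 11.68 in LKO_Fasted (median 10.99). The LKO groups overlapped by 1 array at each end, and the LWT groups overlapped widely. The increase in LKO was 0.83 (SE 0.17, adjusted p = 0.000483) or 1.78-fold, and in LWT the value was -0.23 (95% interval -0.56 to 0.091, adjusted p = 0.249). The changes differed by 1.07 (SE 0.23, adjusted p = 0.00762), with 0.43, 1.48 and 1.05 within slides and 0.90 to 1.20 on leaving out 1 array. A second probe at chr3:10208442-10208501 gave 0.87 for fasting in LKO (adjusted p = 0.00113), with no overlap of its groups, and 1.30 for the difference (adjusted p = 0.00468). Fasted LKO exceeded fasted LWT by 0.62 (SE 0.17, adjusted p = 0.0125; 0.0501 without LKO_Fasted replicate 6). When fed, LKO stood at -0.45 against LWT (adjusted p = 0.0592), which passed without LWT_Fasted replicates 2 and 3 (0.0450 and 0.0300), LKO_Fed replicate 2 (0.0364) or LKO_Fasted replicate 2 (0.0430), and the second probe gave -0.65 (adjusted p = 0.0180). It passed in 10 of 14 alternative settings, with adjusted p from 0.0107 to 0.157, and then 3 of the 9 genes differed in the fed state.

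The other cell types that express Fabp4 were examined by their markers. None of 10 macrophage markers passed the test for fasting in LKO (limma, 0 at an unadjusted p under 0.05) or differed between genotypes when fed (2 at such a p) or fasted (2), and 3 of 10 fell with fasting in LWT (Cd68, Lyz2 and C1qa). Of all genes, 41.5% were called for fasting in each genotype, 16.4% for genotype when fed and 20.6% when fasted, and 7.97% for the difference of the fasting changes. For the macrophage markers, the difference of the fasting changes was positive, as for Fabp4, for 10 of 10. It ran from 0.16 to 1.19 with a median of 0.45 against -0.0013 for all genes, though none passed the test (1 at an unadjusted p under 0.05). For LKO against LWT when fed, 9 of 10 were negative, with a median of -0.37. For fasting in LKO, where Fabp4 rose, 5 were positive and 5 negative (median -0.025). For LKO against LWT when fasted, where Fabp4 was higher, 6 were positive and 4 negative (median 0.0093). Their summed signal was 48607.4 to 66026.8 in LWT_Fed, 27136.2 to 67755 in LWT_Fasted, 36404.5 to 62611 in LKO_Fed and 29760.2 to 113725 in LKO_Fasted, the last on replicate 6, which had the second highest Fabp4 of its group at 11.22. The highest Fabp4, 11.68, was on LKO_Fasted replicate 4, with a macrophage sum of 52664.2. Of 10 endothelial markers, 2 rose (Pecam1 and Robo4) and 1 fell (Tie1) with fasting in LKO, all under 1.5-fold. For the difference of the fasting changes, 8 of 10 were positive (median 0.17) and none passed (0 at an unadjusted p under 0.05). Their summed signal was 25696.7 to 30235 in LWT_Fed, 16505.7 to 35825.7 in LWT_Fasted, 19990.1 to 31133.4 in LKO_Fed and 20256.2 to 31628 in LKO_Fasted. The adipocyte sums are given with Cd36. The part of these cells in the Fabp4 values was not tested. The genes most like Fabp4 were Scap (r = 0.87), the escort protein of SREBPs, Nedd9 (0.84), a scaffold of focal adhesions, and Tmem139 (0.84), with 0.78, 0.67 and 0.66 within groups.

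**Figure D4:**
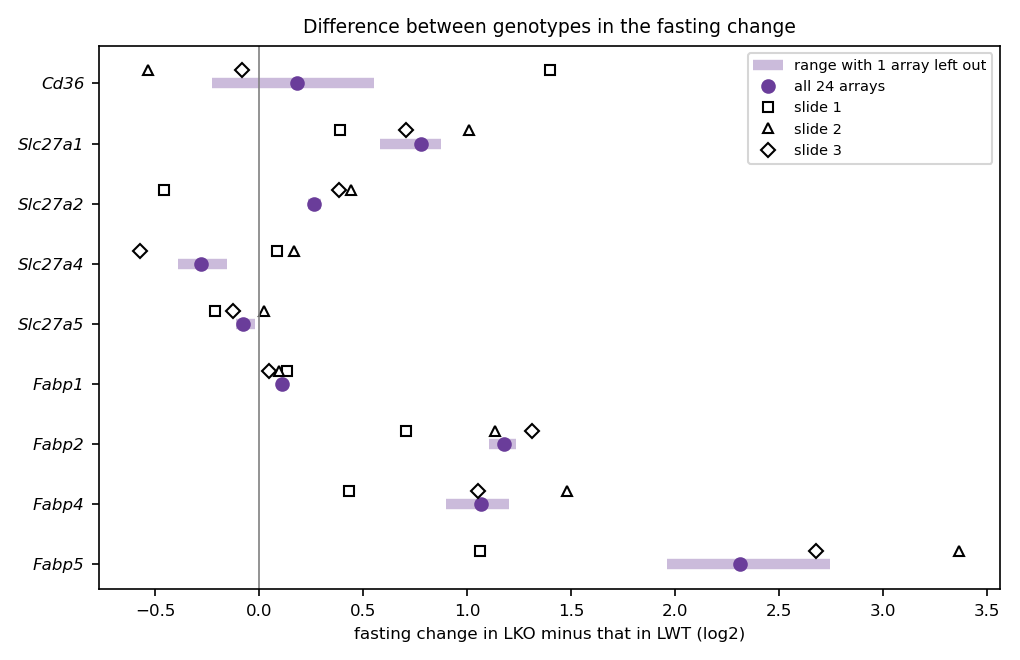
Difference of the fasting changes, LKO minus LWT (log2, horizontal axis) for each gene from all 24 arrays (filled circle), its range when 1 array is left out (bar) and the same difference within each slide (open symbols). Fabp2, Fabp4 and Fabp5 are right of 0 on all 3 slides, from 0.71 to 1.31, 0.43 to 1.48 and 1.06 to 3.36, while Cd36 and Slc27a2 are on both sides.

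Fabp1, the abundant liver-type protein, passed the test in no comparison (probe chr6:71154906-71154965). Its 24 values lay between 18.26 and 18.54, and its means were 18.48 ± 0.057 (SD, n = 6) in fed and 18.43 ± 0.053 in fasted LWT, and 18.37 ± 0.046 in fed and 18.40 ± 0.086 in fasted LKO. The widest value was -0.11 for LKO against LWT when fed (95% interval -0.20 to -0.014, adjusted p = 0.111), which turned to 0.045 with the processed signal and 0.029 with median centring. With the same 2 scalings its fasting value in LKO went from 0.047 to -0.13 and -0.10, and the difference of the fasting changes from 0.11 to -0.077 and -0.074. The probe ranked 26 to 45 among the 32197 tested on each array, where quantile normalization fixes the level of each rank. Among the genes most like it were Hsd17b12 (r = 0.81), of fatty acid elongation, and Egfem1 (0.71), and for Slc27a5 and Slc27a4 the highest r were 0.81 (Snx18, followed by Asgr2 and Sh3yl1) and 0.75 (Olfr1347, followed by Orm3 and Erc2).

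Genes around the 9 were followed as lists. Of 7 other members of both families, 4 could be tested. Slc27a3 fell with fasting by -0.59 (adjusted p = 9.1e-05) in LWT and -0.66 (adjusted p = 8.01e-05) in LKO, and no other member of the list passed 1.5-fold. Of 11 genes of acyl-CoA synthesis and binding, 9 were tested, and with fasting 2 rose and 5 fell in LWT while 5 rose and 2 fell in LKO. These and the fasting counts of the next lists stand beside 41.5% of all genes called in each genotype, and no list was tested. Acsl1, the main acyl-CoA synthetase of oxidative tissues, rose by 0.93 (adjusted p = 4.88e-07) and 1.43 (adjusted p = 3.19e-09), and Acsl3, of lipid droplets and endoplasmic reticulum, fell by -1.27 (adjusted p = 1.09e-07) and -0.90 (adjusted p = 3.56e-05). The fasting change of Acsl5 was -0.32 in LWT and 0.30 in LKO, a difference of 0.61 (SE 0.15, adjusted p = 0.0172), and Acsl4 was higher by 0.85 (adjusted p = 0.000201) in fasted LKO than in fasted LWT.

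Of 14 genes of lipoprotein lipid uptake and its lipases, all tested, 2 rose and 2 fell with fasting in LWT, and 3 rose and 8 fell in LKO. Angptl4, a fasting-induced inhibitor of lipoprotein lipase, rose by 2.13 (adjusted p = 8.17e-09) in LWT and by 2.06 (adjusted p = 4.42e-08) in LKO, while Angptl8 fell by -2.75 (adjusted p = 2.59e-09) and -2.20 (adjusted p = 2.32e-07). Lpl, lipoprotein lipase, was higher in fasted LKO than in fasted LWT by 1.23 (SE 0.23, adjusted p = 0.000555). Scarb1, the HDL receptor, fell with fasting by -0.60 in LKO (adjusted p = 6.48e-05) and stood at 0.11 in LWT, a difference of -0.71 (adjusted p = 0.00349). Among 5 other membrane proteins of lipid entry, of which 4 were tested, Mfsd2a, a carrier of lysophospholipids, rose with fasting by 1.97 (adjusted p = 0.000140) in LWT and 3.04 (adjusted p = 2.34e-06) in LKO and was lower in fed LKO by -1.71 (adjusted p = 0.00316).

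Of 12 regulators, all tested, 6 rose and 1 fell with fasting in LWT, and 4 rose and 2 fell in LKO. Ppara rose by 0.89 (adjusted p = 2.96e-10) and 0.87 (adjusted p = 1.44e-09), with a difference of -0.022 (adjusted p = 0.917), and Ppard fell by -0.95 (adjusted p = 6.18e-05) and -0.79 (adjusted p = 0.00115). Nr1i2, the pregnane X receptor, rose by 0.98 (adjusted p = 7.21e-08) and 0.63 (adjusted p = 8.62e-05). Foxo1, a transcription factor restrained by insulin signalling, rose by 0.71 in LWT (adjusted p = 2.04e-05) and stood at 0.047 in LKO, a difference of -0.67 (SE 0.16, adjusted p = 0.0166). Pparg, given above with Cd36, was the only regulator on the list that differed between the fed groups.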

How the data were processed

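Liver RNA of 24 mice, labelled with Cy3, was measured by the authors on Agilent mouse expression arrays of 1 colour (SurePrint G3, 8 arrays on a slide, 60-base probes). Spots were quantified with version 10.10.1.1 of Feature Extraction. The deposited intensity values, per the file headers, are the median and mean of each spot and its background, and a processed signal, none scaled between arrays. The deposited matrix holds log2 values. The authors' methods name a filter, a correction for washing bath and quantile normalization. Within each array, its 32595 probes keep nearly the order of the scanner's median signal (lowest Spearman rho 0.999996), so a bath correction that differs between probes is not seen in it. Its scale and direction are those of log2 signal, without gene centring, with column medians of 8.061 to 8.065. Which bath an array was washed in was not given in the sources used here.

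Outlier spots were removed, spots of a probe were averaged, and a probe was kept if well above background on at least 5 of 6 arrays of a group, which left 32197 of 56605. Median signals were log2 transformed, quantile normalized and fitted with limma 3.58.1 in R 4.3.3 (lmFit, arrayWeights, eBayes), with group means and slide as terms in 1 model of all 24 arrays, since slides are washed whole. P-values are two-sided and adjusted by Benjamini-Hochberg over all probes. Fold changes come from the weighted model, so they can depart from differences of raw means. A gene was represented by its brightest probe. Names came from the files, with 32994 probes matched to RefSeq (GRCm38.p6, names and start regions only). Probe positions are mm9, and exon or UTR placement was not determined. The precision is limited by the number of arrays.

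The 9 genes and the lists were chosen with earlier results of these data known. Named genes were the 9, Pik3ca, up to 3 genes per list and comparison past adjusted p of 0.05 and 1.5-fold, and the 3 genes with the highest r to each member among 14343. Cdx2 and other genes named for a count of 5 or fewer, for markers or beside a member were chosen after their values were seen. Some genes that the rule names are not reported here. Marker lists of stellate cells, zones of the lobule and sex-biased genes were also counted, as given in the closing section. The fitting script was tested on simulated data. Alternatives were background correction, scaling, weights, slide, filter, samples fitted, a replicate block, the other probe and leaving out arrays.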

Additional observations from a re-analysis of the deposited data

Results flagged for a closer look

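The fasting change differed between LKO and LWT for 3 of the 9 genes, by 1.18 for Fabp2, 1.07 for Fabp4 and 2.31 for Fabp5 (log2, LKO minus LWT), each tested by the interaction term of the limma model. Of all genes, 7.97% differed so and 4.11% were more positive in LKO. The calls for Fabp2 and Fabp4 held whichever array was left out, and that for Fabp5 was kept in 14 of 24 such fits.

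Of 36 groups of 6 arrays examined for the 9 genes, 5 held an array far from the rest, where chance alone gives about 1 in 20. Fabp1 was at 18.46 on LKO_Fed replicate 4, with the next array at 18.36. LKO_Fasted replicate 4 was low for Fabp2, at 14.75 with the next at 15.09, and for Slc27a2, at 17.26 with the next at 17.54. LWT_Fed replicate 3 was low for Slc27a2, at 16.34 with the next at 16.77, and LWT_Fed replicate 4 was low for Fabp5, at 13.79 with the next at 15.05. LWT_Fed replicate 3 and LKO_Fasted replicate 4 had the lowest weights in the model, 0.32 and 0.36.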

How the results depend on the processing

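The direction of each of the 16 calls among 45 values stayed the same under the alternative settings, where 190 values kept the call and 18 lost it, and on leaving out each of the 24 arrays, where 349 kept it and 35 lost it. The setting that added the 1.5-fold limit re-used the same fit, so calls already past that fold kept it by construction. The setting without the 2 arrays of lowest weight was chosen after the data were seen. Both are also in the counts of settings given with each gene. The number of members differing in the fasted state was 3 and moved to 1 with no filter on dim probes and to 0 with only the groups compared. On leaving out 1 array it ran from 0 (without LKO_Fasted replicate 6) to 4, and was 1 without LWT_Fasted replicates 1 or 5 or LKO_Fasted replicates 1, 3 or 5. Under the settings that count also reached 4, with median centring, without the slide term, with slide as a random block and without the 2 arrays of lowest weight. On leaving out 1 array the other counts ran from 3 to 4 for fasting in LWT, 4 to 6 for fasting in LKO, 2 to 3 in the fed state and 2 to 3 for the difference of the fasting changes, and under the settings they were 3, 4 to 5, 2 to 3 and 2 to 4. The share of all genes called was not computed under these settings.

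Signs turned only for values that passed no test. With the processed signal, Slc27a5 with fasting in LWT was 0.011, Slc27a4 for genotype in the fasted state -0.000885, and Fabp1 -0.13 for fasting in LKO, 0.045 for genotype when fed and -0.077 for the difference of the fasting changes. With median centring, these Fabp1 values were -0.10, 0.029 and -0.074, and Slc27a5 for genotype when fed was -0.022. Fabp1 for genotype when fasted was 0.000208 in the authors' matrix and 0.010 without the 2 arrays of lowest weight, where Cd36 with fasting in LKO was -0.029 and Slc27a4 for genotype when fasted -0.013. The gains and losses of calls on leaving out 1 array stand with each gene above. Among the settings, Cd36 for genotype when fasted did not pass without array weights (adjusted p = 0.0583), without the filter (0.0663), with only the groups compared (0.152) or without LKO_Fasted replicates 1 and 2 together (0.115). Fabp5 for genotype when fasted did not pass with the processed signal (0.0553), without the filter (0.0650), with only the groups compared (0.0747) or with the replicate block, and its difference of the fasting changes without the filter (0.0667) or with that block. Fabp4 for genotype when fasted did not pass with only the groups compared (0.0788). Slc27a5 with fasting in LKO kept its call in 6 of 13 settings (1 of the losses being the added 1.5-fold limit), and Fabp4 for genotype when fed, which is not counted as differing, passed in 10 of 14. The other Slc27a4 probe gave 0.085, 0.14, -0.12, -0.067 and 0.054. On leaving out 1 array, values ran from -0.028 to 0.20 for Cd36 with fasting in LKO, -0.43 to 0.28 for Cd36 with fasting in LWT, -0.23 to 0.55 for the difference of its changes, -0.025 to 0.017 for Fabp1 and -0.069 to 0.13 for Slc27a4 for genotype when fasted, -0.17 to 0.026 for Slc27a4 with fasting in LWT, and -0.012 to 0.046 for Slc27a5 for genotype when fed. The cause was not tested.

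Replicate numbers shared by the groups did not pair the mice: arrays of 1 number had mean correlations of -0.054 to 0.017, and 2 of 24 arrays correlated best with their own number. With the replicate block, the counts were 4 for fasting in LKO, 2 for genotype when fasted and 2 for the difference, where Fabp5 (adjusted p = 0.0576 and 0.0556) and, for fasting in LKO, Slc27a5 (0.0527) no longer passed, and Slc27a4 with fasting in LWT was 0.033. The scalings moved the median of all genes by less than 0.1. The 6 arrays per group, and for Slc27a4 a dim probe, limit the precision.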

Other observations

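Lists of other liver genes were counted, with no test of a list. Of all genes, 41.5% changed with fasting in each genotype, 16.4% differed between the fed genotypes and 20.6% between the fasted genotypes. Of 8 male-biased liver genes, all tested, 4 were lower in fasted LKO than in fasted LWT and none was higher. Hsd3b5, a male-specific steroid dehydrogenase, fell with fasting by -2.55 (adjusted p = 1.84e-06, limma) in LWT and by -4.58 (adjusted p = 1.42e-09) in LKO, a difference of -2.03 (adjusted p = 0.0141). Of 9 female-biased genes 5 could be tested, and 2 were lower in fasted LKO, among them Cyp2a4 at -1.05 (adjusted p = 0.00311).

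Among 9 pericentral hepatocyte genes, 3 rose and 3 fell with fasting in each genotype, and Cyp1a2 fell by -1.50 (adjusted p = 8.03e-08) in LKO, which differed from LWT by -1.07 (adjusted p = 0.00371). Among 8 periportal genes, 3 rose and 1 fell in LWT, and 1 rose and 2 fell in LKO. Sds, serine dehydratase, rose by 1.45 (adjusted p = 6.09e-06) in LWT, and its change in LKO differed by -1.07 (adjusted p = 0.0356). Of 8 stellate cell and fibroblast markers, 1 rose and 2 fell in LWT and 1 rose and 3 fell in LKO, with Col3a1 lower by -0.89 (adjusted p = 0.000721) and -1.23 (adjusted p = 7.64e-05) and Lrat by -0.90 (adjusted p = 0.000267) and -0.96 (adjusted p = 0.000381), and none differed between genotypes in either feeding state (limma, 1 at an unadjusted p under 0.05 when fed and 0 when fasted).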
